A study of Mus musculus with 7 samples.

Results

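The genes described here are 10 drivers and markers of epithelial-mesenchymal transition: the transcription factors Foxc2, Twist1, Twist2, Snai1, Snai2, Zeb1 and Zeb2, the cadherins Cdh1 and Cdh2, and the intermediate filament gene Vim. They were chosen by name, and every probe set of the array table whose only platform gene symbol is one of these names was taken. This gave 14 probe sets of the 22626 on the array that are not controls. Of the 10 genes, 7 had a single probe set, Zeb1 and Cdh2 had a pair each, and Vim had 3. The arrays measured total RNA of transplanted mouse mammary tumours, 3 of the line labelled Met1 and 4 of the line labelled DB7. The design text of the series instead describes tumours of F1 mice, from crosses of AKR/J or DBA/2J with PyMT animals. The sample labels were followed, and whether each array is a transplant of the named line cannot be settled from these sources. Age, sex and strain of the host animals, and any treatment, are not given in the labels. Both lines are known to derive from tumours of mice that carry a polyoma middle T transgene, which in such mice is usually driven in mammary epithelium by the mouse mammary tumour virus promoter. Met1 tumours are known to spread to the lung often, and those of DB7, which carries a mutant form of the transgene, seldom. Each group is 1 line, so a difference between the groups is a difference between these 2 lines. Nothing in the labels ties an array to an animal of its own, and the spread that the p-values rest on is that of these samples and may be technical.

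In epithelial-mesenchymal transition, cells joined by E-cadherin (Cdh1) lose that adhesion and take on N-cadherin (Cdh2) and vimentin (Vim). The zinc finger proteins Snai1, Snai2, Zeb1 and Zeb2 bind short E-box sequences and can repress Cdh1 directly. The basic helix-loop-helix proteins Twist1 and Twist2 and the forkhead protein Foxc2 are also known to promote the mesenchymal state. In a whole tumour the same genes are used by cells that are not carcinoma cells, since fibroblasts, endothelial cells and macrophages carry Vim.

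The E-box bound by the Snai and Zeb proteins reads CACCTG, or CAGGTG on the opposite strand. RefSeq promoter windows, from 250 bases before to 50 after a gene's start (build GRCm38.p6), were given for Twist1, Twist2, Snai1, Zeb2 and Vim, in 8 windows because Zeb2 has several starts. Some of the Zeb2 windows overlap, so the 8 are not independent. No window was given for the other members, Cdh1 among them, and their promoters were not searched. The motif was searched on both strands, and no other motif was searched. Of the 8 windows, 1 held it, that of Snai1, against 20.2% of all 32851 windows. Its sequence is shown because it is the only one of these windows with a match, at chr2:167537945-167538244 on the plus strand, with the E-box in capitals. The first base of the match lies 126 bases before the start.
Snai1: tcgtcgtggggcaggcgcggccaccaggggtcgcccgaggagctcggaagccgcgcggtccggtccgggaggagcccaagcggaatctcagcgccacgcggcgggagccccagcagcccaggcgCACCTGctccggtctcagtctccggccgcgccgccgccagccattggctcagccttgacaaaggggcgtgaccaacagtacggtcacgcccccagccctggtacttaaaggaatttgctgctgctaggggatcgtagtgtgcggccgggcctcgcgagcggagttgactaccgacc
The match is a description of these letters, and binding was not measured.

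Values are log2 probe set summaries, and the median of an array lay between 6.53 and 6.61. A probe set was tested where it lay above the array median on at least 3 of the 7 arrays. The median within-group SD over the 11704 tested probe sets was 0.09 in Met1 and 0.14 in DB7. Both lines carried the markers of luminal epithelium, the cell layer in which such tumours arise: 6 of 7 lay above the median on all arrays, with Epcam at 11.60 in Met1 and 12.09 in DB7 (log2 means). Of 6 tested luminal markers, 4 were lower in Met1 and 1, Elf5, was higher (limma, adjusted p under 0.05). Over all tested probe sets 17.6% were lower and 13.4% higher at this threshold. Of 7 basal and myoepithelial markers, Krt5 lay above the median on all 7 arrays (6.84 to 7.12). The other 6, Krt14 and Trp63 among them, lay below it on every array. All 4 skeletal muscle markers also lay below it on every array.

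Of the 14 probe sets, 4 lay above the median on all 7 arrays, 1 for Cdh1 and 3 for Vim. A further 7 lay below it on every array: those of Twist2, Snai1, Snai2 and Zeb2, both of Cdh2 and 1 of the pair of Zeb1. Foxc2, Twist1 and the brighter Zeb1 probe set crossed it. With 5 probe sets tested, 1 was lower in Met1 and 0 were higher (limma, Benjamini-Hochberg adjusted p under 0.05), and the counts were the same at an unadjusted p under 0.05. Over all tested probe sets 31.0% were called, 13.4% higher and 17.6% lower in Met1. Only 3 of the 10 genes, Foxc2, Cdh1 and Vim, had a tested probe set, so counts over the tested probe sets do not describe all members. A value below the median is not shown to be background, since no detection calls were used here.

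**Figure D1:**
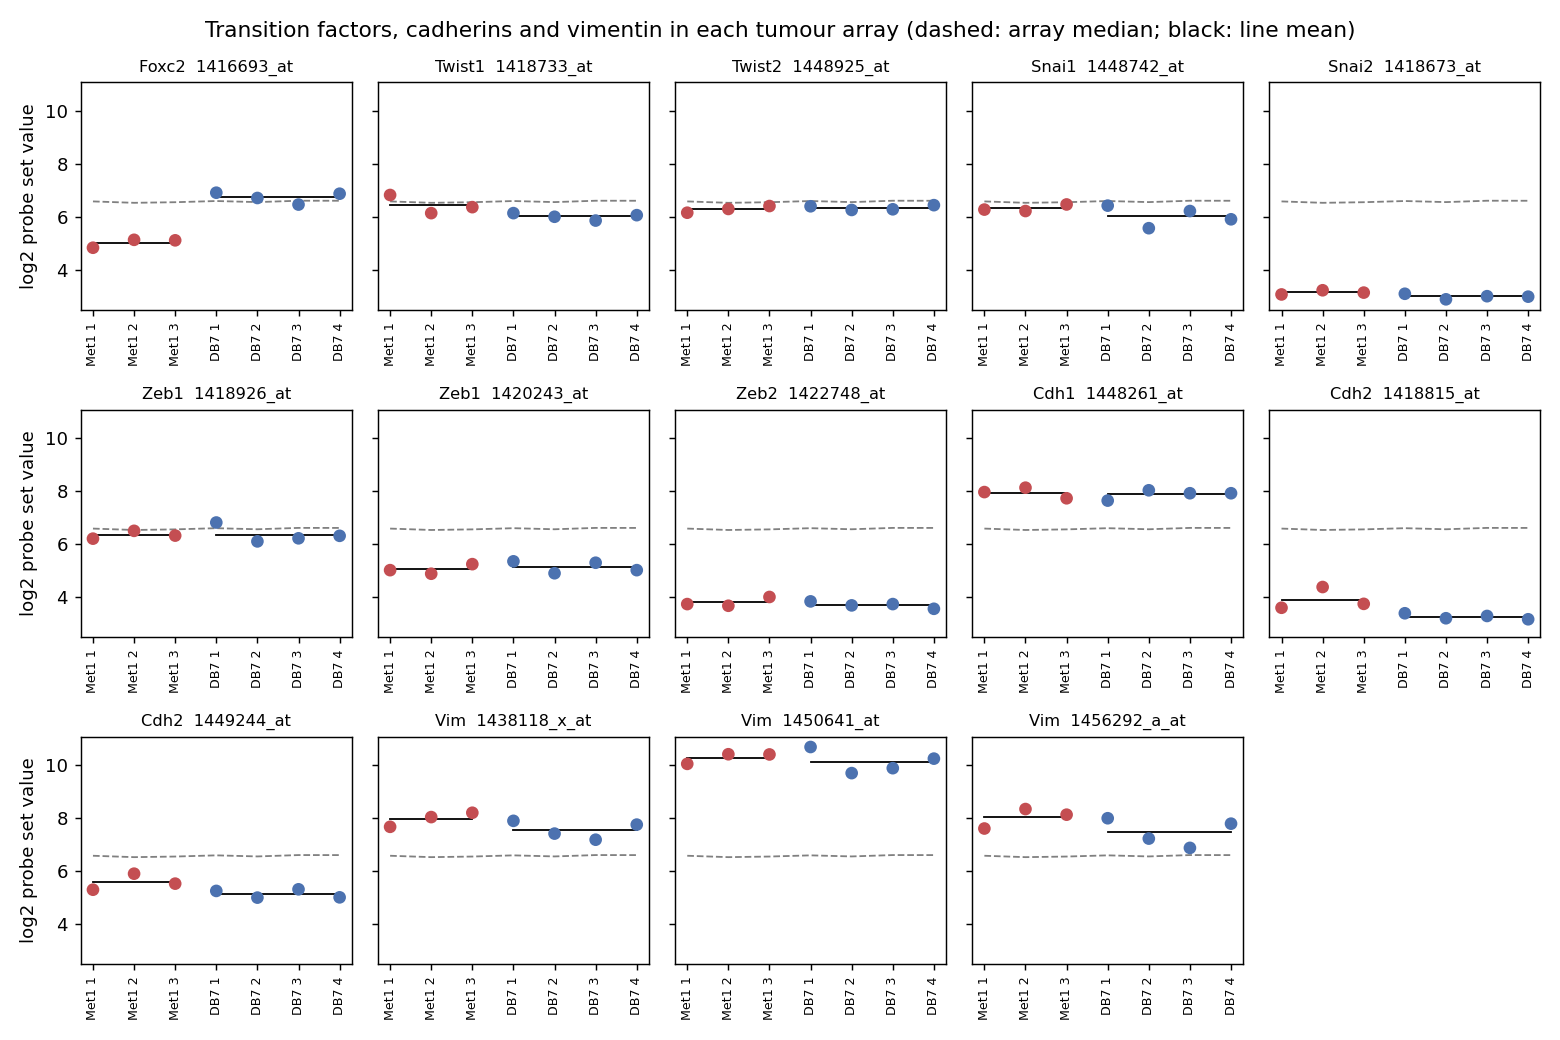
Log2 values of the 14 probe sets (vertical axis) on the 3 Met1 arrays (red) and the 4 DB7 arrays (blue), with the array median dashed and the mean of each line in black. Foxc2 sits near 5 in Met1 and between 6.47 and 6.91 in DB7, Cdh1 and Vim lie above the median on every array, and most of the other factors lie below it.

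Foxc2 was the only tested member called different between the lines. This forkhead factor, which also directs the formation of mesenchyme, lymphatic vessels and valves, read 4.84, 5.14 and 5.12 on the Met1 arrays. On the DB7 arrays it read 6.91, 6.72, 6.47 and 6.88. All DB7 arrays lay above all Met1 arrays, by at least the gap between 5.14 and 6.47. The mean was 5.03 ± 0.17 in Met1 against 6.74 ± 0.20 in DB7 (SD, n = 3 and 4), and Foxc2 fell by 1.71 in Met1 (SE 0.14; limma, adjusted p = 4.32e-05). This is a 3.28-fold lower value, with a 95% confidence interval of 2.65-fold to 4.06-fold. Of the tested probe sets, 1.48% had a larger absolute difference. Foxc2 passed the intensity filter only through DB7, where 3 of 4 arrays lay above the median, and lay above 17.7% to 22.3% of probe sets in Met1 against 46.8% to 57.0% in DB7. Summaries of this kind can compress differences at low signal, so the fold is approximate. It was called in all 15 alternatives in which it was tested, with differences from -1.81 to -1.56.

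Beside Foxc2 on chromosome 8 lie the forkhead genes Foxf1 and Foxl1, which share its cluster. Foxf1, a regulator of visceral mesenchyme, read 6.68 on each Met1 array and 6.58 to 6.77 in DB7, a difference of 0.01 (SE 0.08). Foxl1, a forkhead gene of gut mesenchyme, differed by 0.04 (SE 0.07). Neither passed the test (limma, adjusted p = 0.905 and 0.722), and both probe sets lay within a narrow band just above the array median. Of the 3 nearest measured genes on either side, Map1lc3b, an autophagy protein gene, was higher in Met1 by 0.32 (SE 0.10; adjusted p = 0.0349). The other 5 did not pass.

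By root mean square difference of profiles centred on their mean over the 7 arrays, the closest of 10738 candidate probe sets to Foxc2 were both of Foxp1, another forkhead factor, and 1 of Net1. The differences from the Foxc2 profile were 0.09 and 0.13 for Foxp1 and 0.10 for Net1, in log2 units. Foxp1 read 6.12 to 6.33 in Met1 and 7.77 to 8.24 in DB7 at the closer probe set. These probe sets were chosen for their likeness over all 7 arrays, both lines included, so their difference between the lines is a description.

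**Figure D2:**
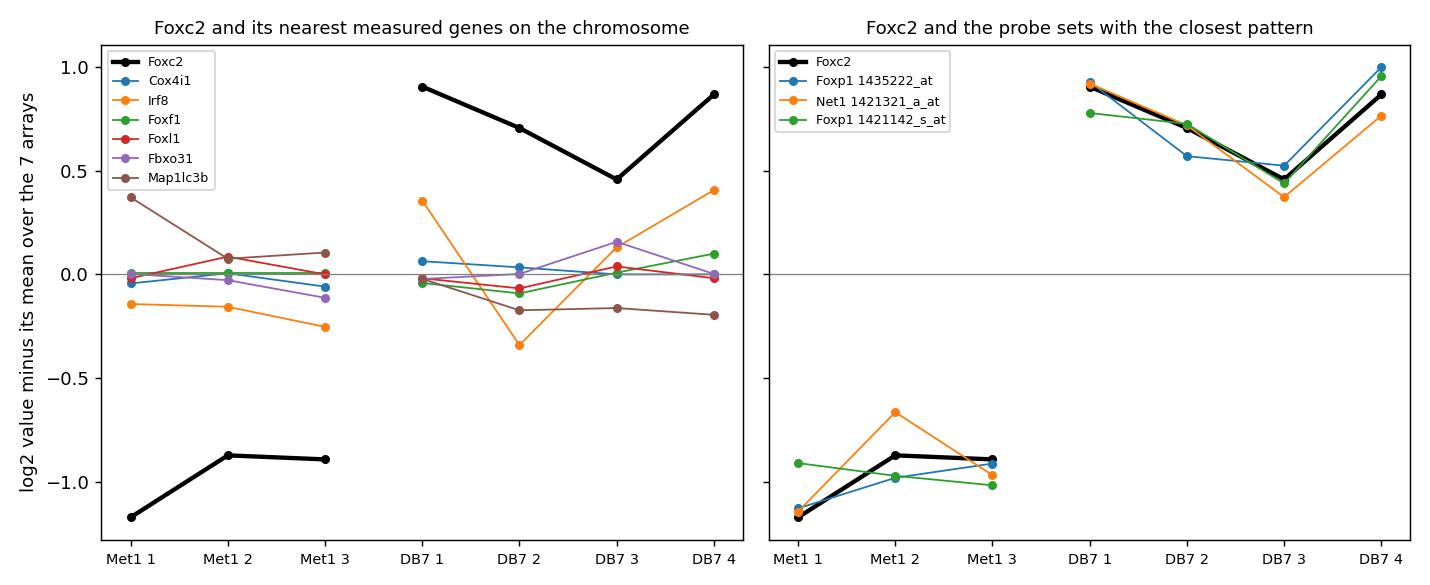
Log2 value minus its mean over the 7 arrays (vertical axis) by array, for Foxc2 in black with its nearest measured genes on the chromosome (left) and with the probe sets of closest pattern (right). Foxc2 steps up between Met1 and DB7, Foxf1 and Foxl1 stay near 0, and the Foxp1 and Net1 probe sets follow the step.

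The Twist genes lay below the array median on all arrays but 1. Twist1 read 6.83, 6.14 and 6.37 in Met1 and 6.14, 6.01, 5.86 and 6.07 in DB7. The highest value was that of Met1 1, the only array on which Twist1 lay above the median, and the groups met at 6.14. Twist1 was not tested under the intensity filter. Without the filter, in a fit of all 22626 probe sets, its difference was 0.43 (SE 0.15) and did not pass (limma, adjusted p = 0.0847, unadjusted p = 0.0188). In that fit it fell to 0.24 without Met1 1 (adjusted p = 0.226), and it was called at 0.58 without Met1 2 (adjusted p = 0.0399). Twist2 lay between 6.16 and 6.44 on all 7 arrays, and its groups overlapped. Its difference was -0.06 (SE 0.09, 95% confidence interval -0.26 to 0.14, without the filter).

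Both Snai genes lay below the array median on every array, Snai1 above 29.6% to 48.0% of probe sets. Snai1 read 6.28, 6.22 and 6.47 in Met1 and 6.43, 5.57, 6.22 and 5.91 in DB7. DB7 2 and DB7 4 lay lowest, while DB7 1 lay within the Met1 range. Its difference was 0.29 (SE 0.18, 95% confidence interval -0.12 to 0.70, without the filter; adjusted p = 0.329). Snai2, also known as Slug, lay between 2.89 and 3.23 on all arrays, above only 1.43% to 3.70% of probe sets. Its difference of 0.15 (SE 0.07, 95% confidence interval 0.00475 to 0.301) did not pass without the filter (limma, adjusted p = 0.153, unadjusted p = 0.0444).

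Neither Zeb gene passed the filter. The brighter Zeb1 probe set read 6.21, 6.501 and 6.32 in Met1 and 6.81, 6.10, 6.22 and 6.31 in DB7. DB7 1 was the highest array and the only one above its median, and the other 3 DB7 arrays overlapped Met1. The difference was -0.02 (95% confidence interval -0.38 to 0.34, without the filter). The other Zeb1 probe set lay between 4.88 and 5.35, with a difference of -0.09 (95% confidence interval -0.39 to 0.20). Zeb2 lay between 3.56 and 4.00 on all arrays, with a difference of 0.10 (95% confidence interval -0.12 to 0.31). Without the filter none of these 3 probe sets passed (limma, adjusted p = 0.951, 0.679 and 0.536).

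Cdh1, the E-cadherin gene of epithelial adherens junctions, was well above the array median in both lines and did not differ detectably. It read 7.96, 8.13 and 7.73 in Met1 and 7.64, 8.03, 7.92 and 7.92 in DB7. Every array lay above 72.3% to 81.0% of probe sets, and the DB7 values fell almost wholly within the Met1 range. The means were 7.94 ± 0.20 (SD, n = 3) and 7.88 ± 0.17 (SD, n = 4), a difference of 0.06 (SE 0.12; limma, adjusted p = 0.735). The 95% confidence interval of the Met1 over DB7 ratio ran from 0.863 to 1.26, so these arrays do not exclude a ratio within that range. The sign turned without DB7 1 (-0.02) and without Met1 2 (-0.03), with no call in either case. Cdh3, the P-cadherin gene next to Cdh1 on the chromosome, read 5.23 to 5.44 over the 7 arrays, below every median.

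Cdh2, the N-cadherin gene, was low in both lines. One probe set read 3.60, 4.38 and 3.74 in Met1 and 3.39, 3.20, 3.29 and 3.16 in DB7. All Met1 arrays lay above all DB7 arrays, with Met1 2 the highest, and every array lay within the lowest 13.2% of probe sets. Without the filter this probe set was called higher in Met1 by 0.65 (SE 0.16; limma, adjusted p = 0.0241). In that fit the difference fell to 0.41 without Met1 2 (adjusted p = 0.0210), and the call was lost without DB7 2, DB7 3 or DB7 4 (adjusted p = 0.0563, 0.0619 and 0.0626). The other read 5.30, 5.91 and 5.53 in Met1 and 5.26, 5.005, 5.32 and 5.02 in DB7, where Met1 1 overlapped DB7 3. Its difference was 0.43 (SE 0.14) and did not pass without the filter (limma, adjusted p = 0.0705), with 0.27 without Met1 2 (adjusted p = 0.240) and a call at 0.57 without Met1 1 (adjusted p = 0.0380). In that fit 17.8% of probe sets were called, 7.92% higher and 9.87% lower in Met1, and of the 14 member probe sets 1 was called in each direction. Groups that did not overlap occurred at 2 of the 14, Foxc2 and the lower Cdh2 probe set, against 27.5% of all probe sets and 39.4% of those tested.

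**Figure D3:**
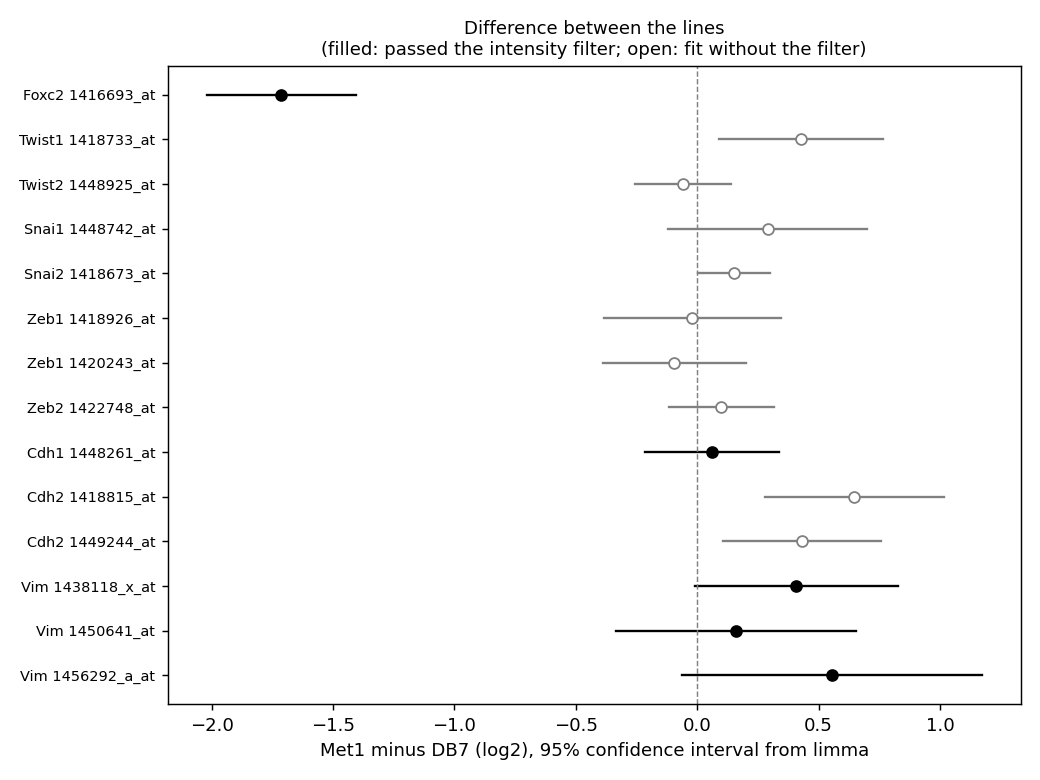
Met1 minus DB7 (horizontal axis, log2) with its 95% confidence interval from limma for each of the 14 probe sets; filled points passed the intensity filter and open points come from the fit without it. The interval of Foxc2 lies wholly below 0, that of Cdh1 spans 0, and those of Cdh2, Twist1 and Snai2 lie above 0 in the fit without the filter, where only the lower Cdh2 probe set passed after adjustment.

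Vim, which encodes the intermediate filament protein of mesenchymal cells, lay above the array median on every array and varied widely within DB7. It did not pass the test at any of its 3 probe sets. The brightest probe set read 10.06, 10.42 and 10.41 in Met1 and 10.69, 9.71, 9.89 and 10.25 in DB7. These values lay above 94.9% to 98.1% of all probe sets. DB7 1 was the highest array and DB7 2 and DB7 3 the lowest, so the groups overlapped. The means were 10.29 ± 0.21 (SD, n = 3) and 10.14 ± 0.43 (SD, n = 4), a difference of 0.16 (SE 0.22; limma, adjusted p = 0.625).

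The other Vim probe sets derive from a single accession and so are not independent. The first, whose _x suffix marks probes that can match other transcripts, read 7.68, 8.05 and 8.21 in Met1 and 7.90, 7.42, 7.19 and 7.76 in DB7. The second read 7.61, 8.35 and 8.14 in Met1 and 8.002, 7.23, 6.88 and 7.80 in DB7. The first lay above 63.2% to 82.0% of all probe sets and the second above 56.3% to 84.0%. DB7 2 and DB7 3 were again the lowest arrays at both. The differences were 0.41 (SE 0.18; limma, adjusted p = 0.128) and 0.55 (SE 0.27; adjusted p = 0.159), and neither passed. When DB7 1 and DB7 4 were left out, all 3 Vim probe sets were called higher in Met1, by 0.50, 0.67 and 0.98 (limma, adjusted p = 0.0289, 0.0186 and 0.0131). In that fit 31.7% of all tested probe sets were called, 14.2% higher and 17.5% lower. Those arrays hold the higher DB7 values of Vim at each probe set, so leaving them out raises the difference by construction.

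Fibroblast, macrophage and endothelial markers moved with Vim across the arrays. The mean log2 level of 10 fibroblast markers was 8.56, 9.21 and 8.86 in Met1 and 9.29, 8.07, 7.65 and 8.67 in DB7. DB7 1 was the highest array, as at the brightest Vim probe set, and DB7 2 and DB7 3 were the lowest, as at all 3. At the other Vim probe sets Met1 2 and Met1 3 lay above DB7 1. Of the 10, 7 lay above the median on all arrays, collagen genes among them (Col1a1, 8.88 to 11.40), Pdgfra lay below it on all, and 0 of 8 tested differed between the lines (limma, adjusted p of 0.0888 or above, 1 with an unadjusted p under 0.05). The mean of 6 macrophage markers was 8.63, 9.15 and 8.99 in Met1 and 9.32, 8.28, 8.34 and 8.97 in DB7. From highest to lowest, the arrays had the same order in this mean as at the brightest Vim probe set. Endothelial markers averaged 6.30 to 6.53 in Met1 and 6.10 to 6.83 in DB7, again highest in DB7 1 and lowest in DB7 2 and DB7 3. Of these 6 markers, 3 lay above the median on all arrays and 2, Tek and Tie1, on none. At Kdr and Tek, Met1 1 lay below DB7 3. The mean of 3 adipocyte markers ran from 5.75 to 7.46 in Met1 and from 5.61 to 7.58 in DB7, highest in DB7 1 and lowest in DB7 3. Pericyte and smooth muscle markers averaged 6.64 to 6.78 in Met1 and 6.49 to 6.67 in DB7, and 1 of 3 tested, Rgs5, was higher in Met1 by 0.62 (SE 0.16; limma, adjusted p = 0.0177). B cell markers averaged 6.95 in DB7 1 and 7.22 in DB7 4, and 5.37 to 5.81 on the other arrays. Of the 4 on the array 0 were tested, and Cd79a and Cd79b lay below the median on every array. Each of the 4 was highest in DB7 1 and DB7 4, most of all Jchain, at 8.33 and 9.33 against 5.08 to 5.88 elsewhere. T and NK cell markers averaged 6.09 to 6.29 in Met1 and 6.18 to 6.58 in DB7, and 2 of the 5 were tested. Cd3d was called lower in Met1, at -0.42 (SE 0.14; limma, adjusted p = 0.0466). Cd3e, the brighter, differed by 0.05 (SE 0.07) and did not pass (limma, adjusted p = 0.626). The luminal epithelial mean moved less, from 9.86 to 10.20 in Met1 and from 10.19 to 10.30 in DB7. That mean averages opposite differences between the lines, -1.47 for Cldn4 and -1.01 for Krt18 against 1.46 for Elf5. The part of these cell types in the Vim values was not tested, and in bulk tissue fewer cells of a type and less RNA per cell cannot be told apart.

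**Figure D4:**
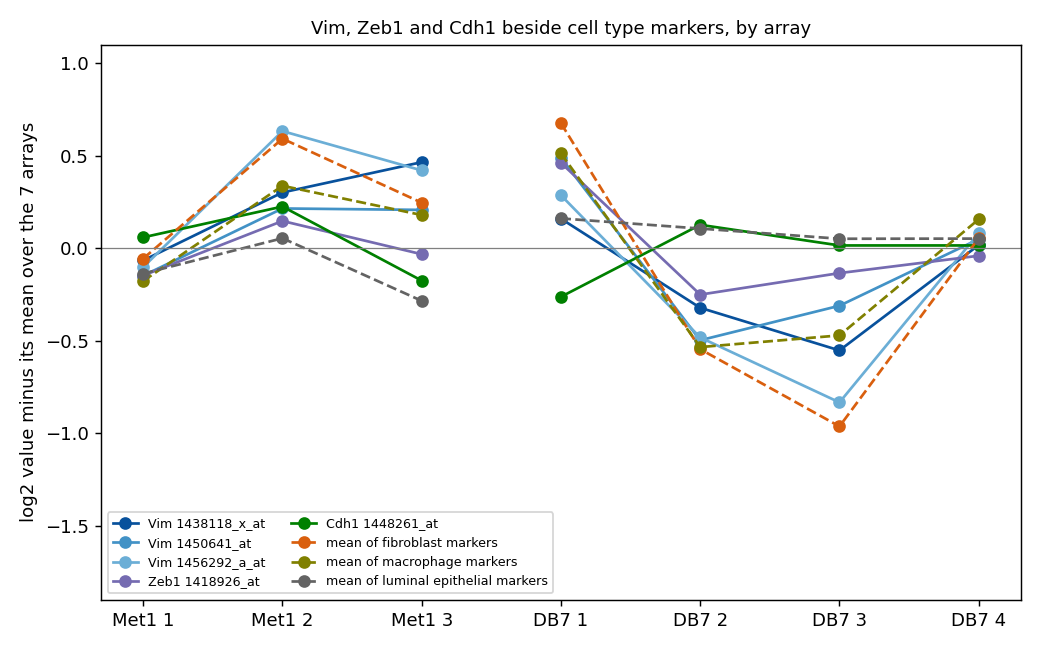
Log2 value minus its mean over the 7 arrays (vertical axis) for the 3 Vim probe sets, Zeb1 and Cdh1 (solid lines) and for the means of fibroblast, macrophage and luminal epithelial markers (dashed lines), by array. Among the DB7 arrays, Vim, the brighter Zeb1 probe set and the fibroblast and macrophage means are highest in DB7 1 and lower in DB7 2 and DB7 3, whereas Cdh1 is lowest in DB7 1.

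The probe sets whose profiles lay closest to Vim were searched for the pair that spanned at least 1 log2 unit. For the _x probe set they were Stab1, a scavenger receptor of macrophages and endothelium, Marcks, a membrane-bound substrate of protein kinase C, and S100a10, the annexin A2 partner, with root mean square differences of 0.06 to 0.09. For the other they were the matrix genes Loxl1, Nid1 and Mmp2, which encode a lysyl oxidase relative, the basement membrane protein nidogen and a gelatinase, at 0.08 to 0.10. Nid1 read 7.42 to 7.94 in Met1 and 6.46 to 7.62 in DB7. These 6 probe sets were chosen for their likeness to Vim over the same 7 arrays, so the arrays on which they are high or low are a description.

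Lists of related genes placed the members in their pathway. Of 82 genes on 7 lists, 76 were on the array and 50 were tested, with 9 higher and 10 lower in Met1. That is 38.0% called, where 30.9% of all 7482 tested genes were called, 13.0% higher and 17.9% lower. The median difference over the 50 was 0.00, against -0.04 over all tested genes. The number called higher changed with single arrays: it was 4 without Met1 1, 5 without Met1 3 and 15 without DB7 1.

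Among 6 tested regulators of transition other than the members, 2 were lower in Met1 and 0 higher (0 also at an unadjusted p under 0.05), with a median of -0.21. With the probe set of largest variance in place of the brightest, 4 were lower, and without Met1 3, 1 was. Foxc1, the closest relative of Foxc2, was 1.57-fold lower at 8.02 ± 0.04 against 8.67 ± 0.23 (SD, n = 3 and 4; limma, adjusted p = 0.00422). Its other probe set differed by -0.34 and did not pass (limma, adjusted p = 0.0867). Sox9, a factor of progenitor cells and cartilage, was 1.42-fold lower (adjusted p = 0.00982), a call lost without Met1 3 (0.0505). The second Sox9 probe set was also lower, at -0.68 (limma, adjusted p = 0.00104). Tcf4, an E protein that pairs with Twist factors, differed by -0.27 (SE 0.13) at its brightest probe set, which did not pass. Its other tested probe sets, at -0.55 and -0.65, did (limma, adjusted p = 0.0169 and 0.0233). Foxq1, a forkhead factor, differed by -0.15 (SE 0.11) and did not pass.

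Regulators of the epithelial state moved in both directions, with 3 of 7 tested higher, 2 lower and a median of 0.03. Grhl1, a grainyhead factor of epithelia, was 1.70-fold higher in Met1 (7.98 ± 0.21 against 7.21 ± 0.15, n = 3 and 4; limma, adjusted p = 0.00151). Ehf, an epithelial ETS factor, was 1.67-fold higher (adjusted p = 0.0115), with its other probe sets between 0.03 and 0.88, and the call was lost without Met1 1 (0.0538) or Met1 2 (0.0548). Esrp1, an epithelial splicing regulator, was the third of the higher genes, at a difference of 0.32. Elf3, another epithelial ETS factor, and Klf5, a Kruppel-like factor of epithelial growth, were 1.39-fold and 1.62-fold lower (adjusted p = 0.00292 and 0.00659).

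Cofactors that the Snai and Zeb proteins recruit, and proteins that mark Snai1 for degradation, gave 1 higher and 1 lower among 9 tested, with a median of -0.05. Rcor1, the CoREST scaffold, was 1.52-fold higher in Met1 (limma, adjusted p = 0.00234), with other probe sets between 0.20 and 0.99. Ezh2, the histone H3 methyltransferase of Polycomb, was 2.28-fold lower at 7.51 ± 0.05 against 8.70 ± 0.32 (SD, n = 3 and 4; adjusted p = 0.000714). The groups of Ezh2 were far apart, with 7.46 to 7.56 in Met1 and 8.38 to 9.09 in DB7. Ctbp1, a corepressor of Zeb1, and Btrc, a ubiquitin ligase subunit, differed by -0.17 (SE 0.09) and -0.23 (SE 0.09) and did not pass.

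Of 6 tested genes of the adherens junction, 2 were higher in Met1 and 0 lower (1 at an unadjusted p under 0.05, Ctnna1), with a median of -0.02. Jup, plakoglobin, was 1.40-fold higher (limma, adjusted p = 0.0232) and Vcl, the actin linker vinculin, 1.304-fold higher (adjusted p = 0.0204). The call of Jup was lost without DB7 3 (0.0564) or Met1 1 (0.0809) and that of Vcl without DB7 3 (0.0539) or Met1 3 (0.0939). Ctnna1 and Ctnnd1, which encode the catenins alpha and p120, differed by -0.19 (SE 0.07) and -0.15 (SE 0.10) and did not pass.

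Desmosome genes, whose products anchor keratin filaments, were lower in Met1 for 3 of 7 and higher for 1, with a median of -0.31. Dsp, desmoplakin, was 2.36-fold lower (limma, adjusted p = 0.0105), at 6.78, 7.30 and 8.15 in Met1 and 8.39, 8.92, 8.84 and 8.45 in DB7. All DB7 arrays lay above all Met1 arrays, though Met1 3 came close to them. Perp, a desmosomal membrane protein induced by p53, was 1.46-fold lower (adjusted p = 0.0107) and Dsc2, a desmosomal cadherin, 1.27-fold lower (adjusted p = 0.0189). The call of Dsc2 was lost without Met1 1 (0.0615) or Met1 2 (0.0749). Pkp3, plakophilin 3, was 1.35-fold higher (adjusted p = 0.00531).

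Of 13 other cadherins only 2 were tested, and 0 passed in limma. They were Cdh5, the endothelial cadherin (difference 0.28, SE 0.21), and Cdh16, a cadherin of kidney epithelium (-0.16, SE 0.08), with an unadjusted p of 0.206 and 0.0761. Cdh5 was called higher in Met1 without DB7 1 (0.47, adjusted p = 0.0402). It read 7.62 in DB7 1, the highest of all arrays. Cdh5 is itself 1 of the 6 endothelial markers, and the mean of the other 5 was also highest in DB7 1, at 6.67 against 5.97 to 6.34 elsewhere.

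Mesenchymal matrix, cytoskeleton and receptor genes gave 2 higher and 2 lower among 13 tested, with a median of 0.45. Cd44, the hyaluronan receptor, was 1.60-fold lower in Met1 at 8.33 ± 0.06 against 9.003 ± 0.26 (SD, n = 3 and 4; limma, adjusted p = 0.00595), and its other probe set differed by -1.28. Mmp14, a membrane-bound metalloproteinase, was 1.57-fold lower (adjusted p = 0.0140), a call lost without Met1 1 (0.0636) or Met1 2 (0.0638). Lox, the collagen cross-linking lysyl oxidase, was 1.92-fold higher (adjusted p = 0.0446) and the integrin gene Itgav 1.32-fold higher (adjusted p = 0.0323).

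Both higher calls of this list depended on single arrays. That of Lox held without DB7 1 and was lost in the other 6 fits with an array left out, with adjusted p up to 0.159 without Met1 3. That of Itgav was lost in 4, without DB7 4 or any 1 of the Met1 arrays, with adjusted p up to 0.123. Without DB7 1, 7 genes of the list were higher, and without DB7 1 and DB7 4, 8 were. Fn1, the fibronectin gene, followed the array order of the fibroblast markers: it read 10.51 in DB7 1, 9.16 in DB7 2 and 9.08 in DB7 3 (difference 0.52, SE 0.35; adjusted p = 0.300). Whether fibroblast content carries these values was not tested.

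**Figure D5:**
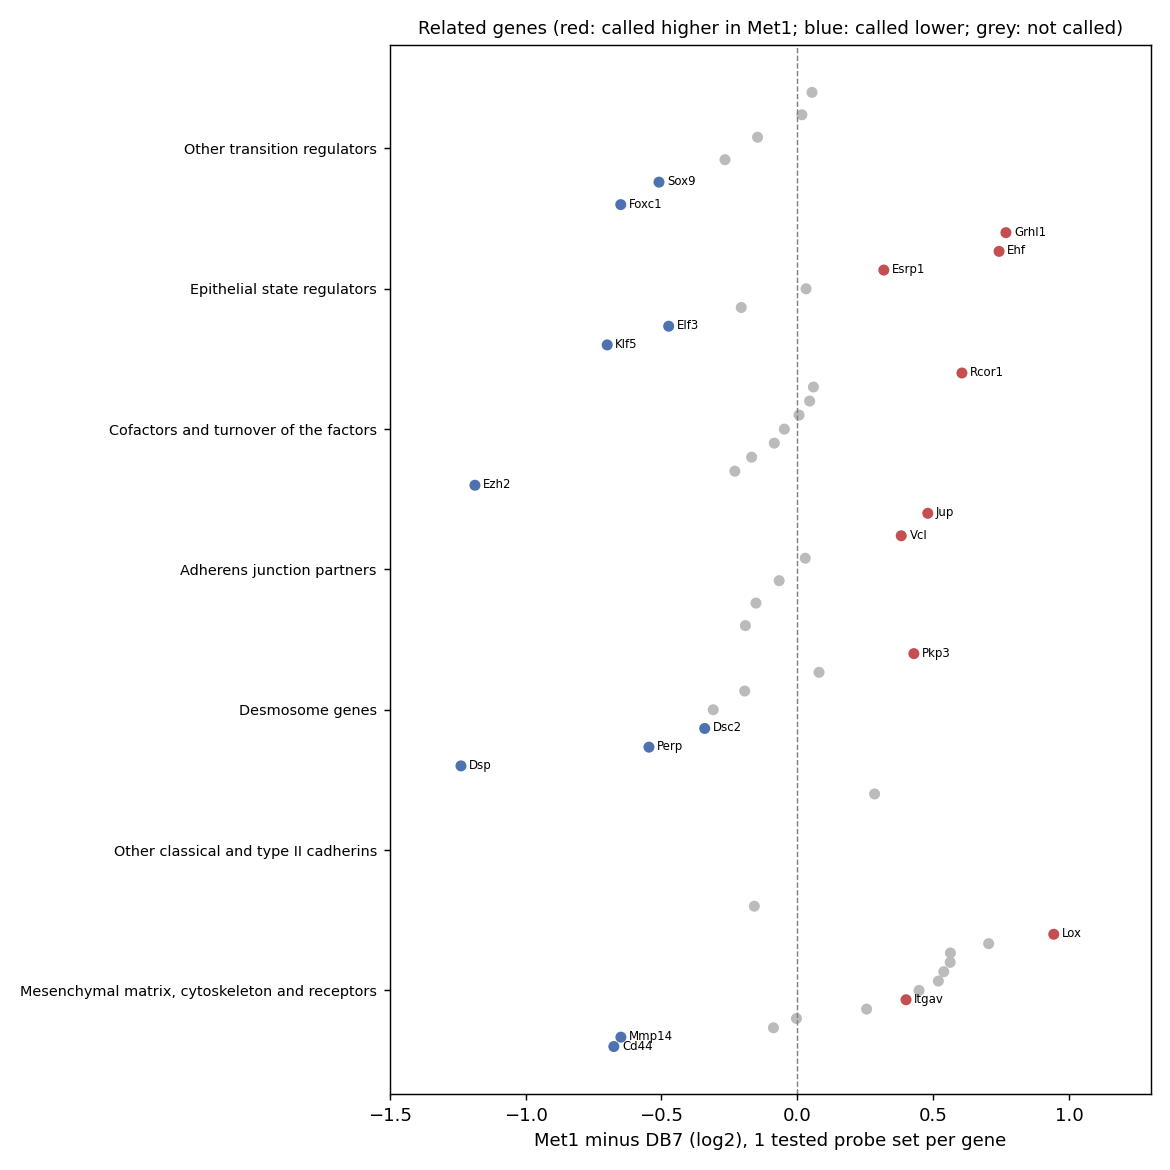
Met1 minus DB7 (horizontal axis, log2) for the 50 tested genes of 7 lists, 1 probe set per gene, with genes called higher in Met1 in red, called lower in blue and not called in grey. Calls lie on both sides of 0 in the epithelial and desmosome lists and in the mesenchymal list, and Dsp and Ezh2 are farthest below 0.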

How the data were processed

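Biotin-labelled total RNA was measured on 7 Affymetrix arrays of 1 colour, per the labels' protocols. The deposited values were taken as log2 probe set summaries from their range. The log base is not stated. Per the submitters' processing notes RMA and MAS5 were used, without saying which gave these values. Such summaries can compress differences at low signal, depending on the method, and the number of arrays limits precision.

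Of 22690 rows, 64 controls were left out. Platform annotation gave 1 symbol to 20380 probe sets, several to 691 and none to 1555. Values were used as deposited. The 2 lines were set against each other in R 4.3.3 by limma 3.58.1 (lmFit, eBayes with intensity trend, group only, two-sided) over 11704 probe sets above the array median on at least 3 arrays, p-values adjusted by Benjamini-Hochberg and called under 0.05. A list gene is represented by its brightest tested probe set. The fit was tested on simulated data.

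The members, lists and alternatives were chosen with earlier results of these data known. Named genes are up to 4 per list, taken by smallest p, and the 3 probe sets closest to each tested member spanning 1 log2 unit. Esrp1, Fn1, Snai3, Cdh3, Cdh11 and the neighbours of Foxc2 and Cdh1 were named after their values were seen. Alternatives covered normalization, filter, variance model, array weights, cross-hybridising probe sets, omitted arrays, the probe set per gene and the replicate number as a block. The fit without the filter was also run without each array, an alternative chosen after seeing the data. Of the list genes, 6 had no probe set.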

Additional observations from a re-analysis of the deposited data

Results flagged for a closer look

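The spread of the 4 DB7 arrays was examined for 50 values: the member probe sets, the named list genes and the marker list means. An array counted as far from the others where its gap to the nearest exceeded Dixon's 95% critical share of the group's range, which chance reaches in about 5% of groups. This held for 2 of the 50. Tcf4 read 8.53 in DB7 2 and 8.17 in each of the other DB7 arrays, whose deposited values are identical. Foxc1 read 9.01 in DB7 4 and 8.52 to 8.59 in the others. None of the 14 member probe sets met this criterion.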

How the results depend on the processing

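Foxc2 stayed lower in Met1 under all 15 alternatives that tested it, but no member was called lower (0) where the median had to be passed on all 7 arrays, since Foxc2 was then not tested. Member probe sets called higher numbered 1 of 14 without the filter (Cdh2) and 1 of 5 with array weights (Vim, 0.53; limma, adjusted p = 0.0377). Without DB7 1 and DB7 4 they numbered 3 of 5 (Vim, 0.50, 0.67 and 0.98). Over all probe sets, 1793 of 22626 were higher without the filter and 1793 of 11704 with array weights. Without DB7 1 and DB7 4, 1660 of 11704 were higher. Cdh1 ranged from -0.0316 (without Met1 2) to 0.169 over fits leaving out 1 array, and was -0.0158 without DB7 1 and -0.0344 without DB7 1 and DB7 4, never called in 16 alternatives. Leaving out 1 array gave 1289 to 2205 probe sets lower in Met1 (main 2060; 1298 without Met1 2 and 1289 without Met1 3) and 4 to 15 list genes higher. With the replicate number as a block, 5 list genes were higher and 8 lower, and Foxc2 differed by -1.67. Same-numbered arrays deviated with correlations of -0.17, -0.05 and 0.02, so the numbers were not taken as pairs. Of the other alternative values, 730 kept their call or stayed within the limits set, 33 lost a call, 3 gained one and 29 moved. The causes were not tested.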

Other observations

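Of the list genes below the intensity filter, Cdh11, a cadherin of mesenchymal cells and osteoblasts, had a mean of 5.76 ± 0.53 in Met1 against 5.03 ± 0.47 in DB7 (SD, n = 3 and 4). It read 5.19, 5.86 and 6.24 in Met1 and 5.59, 4.77, 4.54 and 5.21 in DB7, so the groups overlapped and DB7 2 and DB7 3 were lowest, as they were for Vim. Many probe sets carried exactly the same deposited value on several arrays: 42.2% of all 22626, 29.8% of the 11704 tested and 5 of the 14 member probe sets. Cdh1 read 7.92027 on both DB7 3 and DB7 4, and Snai3, a further Snai gene, read 6.1157 on Met1 2, Met1 3 and DB7 2.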
